A study of Mus musculus with 2 samples.

Results

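The genes described are 10 members of the Notch pathway, chosen by symbol from the 32285 genes of the count tables: 3 receptors (Notch1, Notch2 and Notch3), 3 ligands (Jag1, Jag2 and Dll1) and 4 transcriptional targets (Hes1, Hes2, Hey1 and Heyl). All 10 symbols were found. The list was set by symbol, but with earlier results of these data known. They were measured by single-cell RNA sequencing of epithelial cells from the back skin of mice at postnatal day 1, with 1 library labelled WT and 1 labelled PADI4 cKO, both of batch 1. The mice are described as K14-Cre, Padi4 fl/fl and tdTOMATO, and the WT label gives no further genotype. K14-Cre places the recombinase under a keratin 14 promoter, so that both the deletion of Padi4, a gene for a peptidylarginine deiminase, and the tdTOMATO reporter are directed to keratinocytes. The epidermis was taken off with dispase and the remaining dermal fraction with its growing hair follicles was sorted for tdTOMATO-positive, DAPI-negative cells. How many animals went into a library, and of which sex, is not given.

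Notch receptors are cleaved after they bind a Jagged or Delta ligand on a neighbouring cell, and the released intracellular part enters the nucleus and acts with RBPJ on target genes of the Hes and Hey families, which encode transcriptional repressors. In skin the pathway is known for its part in the suprabasal differentiation of keratinocytes and in the differentiation of the inner hair follicle lineages. Both receptor and ligand are made by epithelial cells, so that which layer holds which is of interest.

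The 2 libraries held 143938990 (WT) and 143945294 (PADI4 cKO) unique molecular identifiers (UMIs, each standing for a captured mRNA molecule), and 8069 and 7394 cells passed the limits. After 56 and 49 cells with markers of fibroblasts, melanocytes or other cells were left out, 8013 and 7345 epithelial cells remained, and 14 barcodes occurred in both libraries. Cells were placed in 12 classes by scores of fixed marker lists, which held none of the 10 genes: interfollicular epidermis (IFE), upper hair follicle (uHF), sebaceous gland (SG), outer root sheath (ORS), companion layer, lower proximal cup (LPC), germinative layer (GL), inner root sheath (IRS) and hair cortex (Cx), each called "-like" here, and 3 classes named by their genes (Sp5-Frem1, Mt4-Foxq1 and Acta2-Tagln). The 61 markers placed the cells, so their levels are no independent check of the classes. Of them, 59 exceeded 1.5 times their level in the remaining epithelial cells in both libraries. The exceptions were Krt6b of the companion layer list, which had 0 UMIs in both, and Krt31 of the Cx list, with 0 UMIs in Cx-like cells labelled PADI4 cKO. The classes are ranges of a score and not sharp types. Of the gated cells, 339 (3.36%) lay within 0.1 of the score cut, and 34.2% of all epithelial cells remained without a class. The smallest class was Cx-like, with 97 and 58 cells, and the largest in both libraries was ORS-like, with 1128 and 1137 cells.

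Padi4 was checked first. Its UMIs numbered 97 for WT and 88 for the library labelled PADI4 cKO, a log2 ratio of −0.16 (95% interval −0.59 to 0.27), so that these 3′ counts did not set the libraries apart, and 3′ tags need not lie in the deleted exons. The libraries also differed in sex-linked genes: UMIs of Y-linked genes without Xist were found in 62.3% of the WT cells and Xist without Y-linked UMIs in 26.1%. In the other library Xist alone was found in 98.3% of cells and Y-linked UMIs alone in 0 of 7345. With 1 library per genotype no test is possible, genotype and library cannot be told apart, and the 95% intervals given throughout cover counting error only.

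The stretches before the transcription starts of Notch1 and Notch3, the receptors that were high in the same classes, and of Lfng, a glycosyltransferase that modifies the receptors and was low in 3 of these classes, are shown from RefSeq (GRCm38.p6), 5′ to 3′ in the direction of the gene. Capitals mark GC boxes (GGGCGG or CCGCCC) in the first and second, and the core of the RBPJ motif (TGGGAA or TTCCCA) in the third. They span chr2:26503823-26504072 (minus strand), chr17:32166891-32167140 (minus strand) and chr5:140607091-140607340 (plus strand).
Notch1: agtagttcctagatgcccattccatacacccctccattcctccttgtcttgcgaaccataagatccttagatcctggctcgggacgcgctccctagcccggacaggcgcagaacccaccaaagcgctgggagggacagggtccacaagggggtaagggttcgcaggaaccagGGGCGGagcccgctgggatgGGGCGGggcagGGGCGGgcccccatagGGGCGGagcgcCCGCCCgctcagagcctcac
Notch3: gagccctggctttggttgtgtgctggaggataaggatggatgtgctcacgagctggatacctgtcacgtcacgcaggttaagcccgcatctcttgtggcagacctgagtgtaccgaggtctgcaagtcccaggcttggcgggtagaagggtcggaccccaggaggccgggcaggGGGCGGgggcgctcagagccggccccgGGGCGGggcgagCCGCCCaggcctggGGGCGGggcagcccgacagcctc
Lfng: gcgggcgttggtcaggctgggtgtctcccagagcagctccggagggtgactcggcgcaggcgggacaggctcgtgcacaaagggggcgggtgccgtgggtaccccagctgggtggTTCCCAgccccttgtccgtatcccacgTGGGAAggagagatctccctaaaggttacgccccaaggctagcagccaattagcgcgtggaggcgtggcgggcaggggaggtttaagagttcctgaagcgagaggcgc
The Notch1 stretch held 5 GC boxes and that of Notch3 held 4, between 78 and 20 and between 76 and 23 bases before the start. The boxes were not particular to them, since the windows of Notch2 and Jag2 held 5 each. A GC box occurred within these 250 bases in 32.7% of all 32851 promoter windows. Windows were given for 6 of the 10 genes (Notch1, Notch2, Notch3, Jag1, Jag2 and Dll1), and the RBPJ core was in 0 of their 7 windows, against 21.6% of all windows. In Lfng it occurred 135 and 108 bases before the start. The 7 windows of members were 56% to 87.2% G and C, against a median of 52.4% over all windows. This bears on how often either motif is met. The 250 bases of Jag2 lay wholly within annotated exons. A match of letters is a description and does not show a binding site.

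Across the classes all 3 receptors were high in companion layer-like and IRS-like cells, and Notch1 and Notch3 also in Cx-like cells. Jag1 was highest in Cx-like and Jag2 lowest in IRS-like cells, Heyl was high in the classes where Notch3 was, Hes2 was highest in Cx-like and Mt4-Foxq1 cells, and Hes1 varied least, 2.08-fold (WT) and 3.07-fold between its highest and lowest class. Levels are given as UMIs of a gene per 1000000 UMIs of the class (CPM), and the order of classes was much alike in both libraries.

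**Figure D1:**
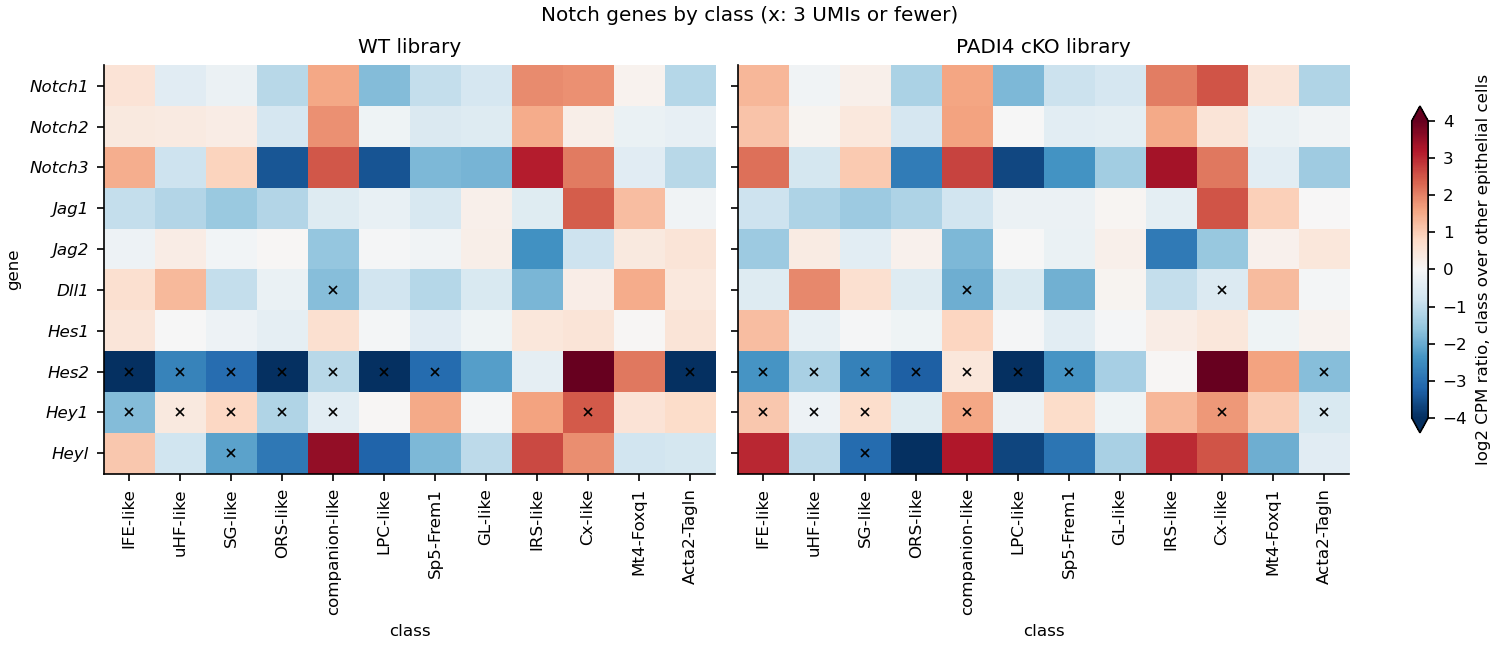
Log2 ratio of the CPM of each class to that of the other epithelial cells, for the 10 genes (rows) and 12 classes (columns) of the WT and PADI4 cKO libraries, with colours saturated at 4 and a cross where a class had 3 UMIs or fewer. Notch1, Notch3 and Heyl are above 0 in the companion layer-like, IRS-like and Cx-like columns of both libraries, where Jag2 is below 0.

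Notch1 (ENSMUSG00000026923, chromosome 2, 26457903 to 26516663, minus strand in GENCODE vM21 on GRCm38) encodes the receptor with a known part in epidermal differentiation. It reached 494 CPM in the WT Cx-like cells (460.5 to 529.6) and 687 CPM in those of the other library (637 to 739.5). IRS-like cells followed with 462 and 463 CPM, and companion layer-like cells with 408 and 365 CPM. At the other end, LPC-like cells had 45.5 and 39.2 CPM. Over the other epithelial cells, WT Cx-like cells had 1.84 more on the log2 scale, and 2.61 more with Leiden clusters in place of the marker gate. The Leiden cluster named Cx-like was a partly different set of cells. It held 254 and 189 cells, and 41.4% of its gated cells were Cx-like by the gate. The highest class was 10.9-fold above the lowest for WT and 17.5-fold above it in the other library. All 12 classes stood in the same order in both, from Cx-like, IRS-like, companion layer-like, IFE-like, Mt4-Foxq1, SG-like, uHF-like, GL-like, Sp5-Frem1, ORS-like and Acta2-Tagln to LPC-like cells. Of the 11 steps between neighbours in this order, 4 lay within counting error in the WT library, the step from Cx-like to IRS-like among them, and 1 in the other.

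Notch2 (chromosome 3, 98013527 to 98150361, plus strand) varied least among the receptors, from 23.4 and 22.8 CPM in ORS-like cells to 125 and 104 CPM in companion layer-like cells. IRS-like cells were next with 92.9 and 92.6 CPM. In contrast to Notch1, Cx-like cells had 42.0 and 48.4 CPM, near the 36 and 34.6 CPM of all epithelial cells. Of its 11 steps, 9 were within counting error in each library.

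Notch3 (chromosome 17, 32120820 to 32166852, minus strand) differed most between classes among the receptors. IRS-like cells had 106 and 97.6 CPM, which was 8.75-fold and 10.1-fold above the other epithelial cells. Companion layer-like cells had 89.4 and 81.1 CPM, Cx-like cells 68.6 and 55.2 CPM, and IFE-like cells 43.8 and 57.6 CPM. SG-like cells had 30.7 and 26.8 CPM, 1.85-fold and 2.09-fold above the others. LPC-like and ORS-like cells stood apart at the low end, with 1.63 and 1.13 CPM and with 1.69 and 2.05 CPM. Free RNA made up at most 7.86% and 7.88% of the UMIs on average over the epithelial cells of a library. This could account for up to 1.28 and 0.796 CPM of Notch3, so that the level of Notch3 in LPC-like cells was close to background. A single class may hold more free RNA. Fibroblast markers summed to 16.7 CPM in ORS-like cells labelled PADI4 cKO, against 7.93 CPM over all. Notch3 in ORS-like cells may thus be near background too.

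The mix of receptors therefore differed between classes. Notch3 took 16.0% of the UMIs of the 3 receptors in WT IRS-like cells (15.0% in the other library) and 2.04% (1.52%) in LPC-like cells. The share of Notch2 was largest in LPC-like cells, with 40.9% and 45.8%, and smallest in Cx-like cells, with 6.95% and 6.12%. These shares are read between classes, since capture at the 3′ end may differ between genes.

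**Figure D2:**
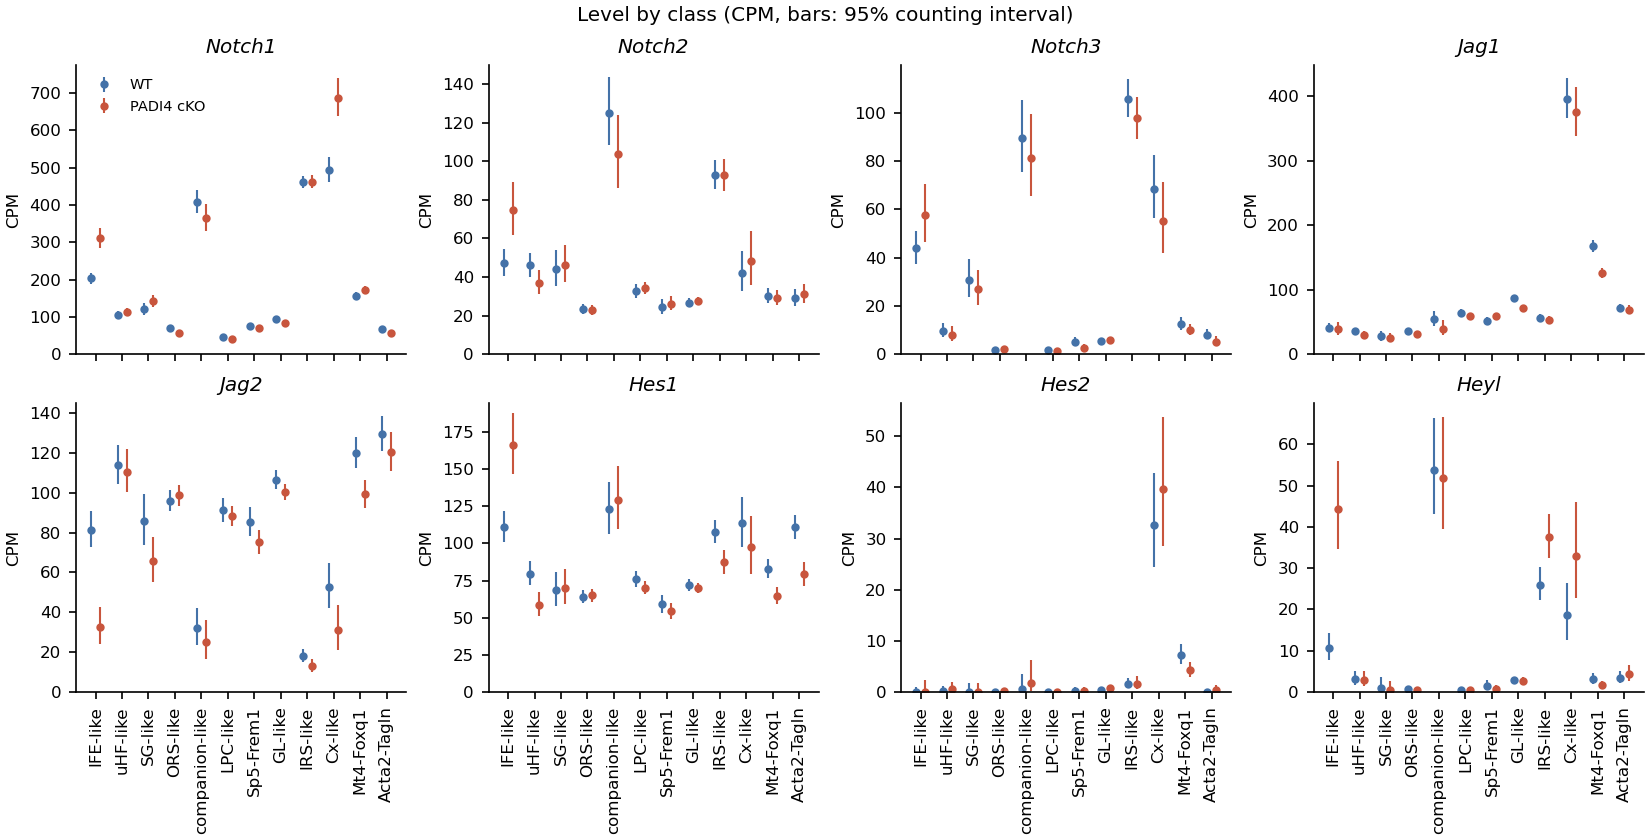
CPM of 8 of the genes (panels, each with its own axis from 0) in the 12 classes of the WT (blue) and PADI4 cKO (red) libraries, with 95% Poisson intervals for counting error. Notch3 lies above 50 CPM in the companion layer-like, IRS-like and Cx-like cells of both libraries, and Jag1 above 300 CPM only in the Cx-like cells.

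Jag1 (chromosome 2, 137081456 to 137116644, minus strand), the ligand altered in Alagille syndrome, was highest in Cx-like cells with 396 CPM (366 to 428) and 375 CPM (339 to 415). These levels were 5.37-fold and 5.68-fold above the other epithelial cells. Mt4-Foxq1 cells were next with 168 and 126 CPM, 2.33-fold and 1.93-fold above the others. GL-like cells followed with 87.0 and 72.3 CPM. Markers of melanocytes (5 of 5 detected) were also highest in Mt4-Foxq1 cells, with a summed level of 46.3 and 45.1 CPM against 17.3 and 17.5 CPM over all epithelial cells, and their part in the levels of this class was not tested. SG-like cells were lowest, with 27.8 and 24.8 CPM.

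Jag2 (chromosome 12, 112907819 to 112929776, minus strand) was spread over more classes than Jag1. Jag2 had 119.9 and 99.2 CPM in Mt4-Foxq1 and 106.6 and 100.2 CPM in GL-like cells. It ranged from 129.7 and 120.4 CPM in Acta2-Tagln cells, through 113.9 and 110.6 CPM in uHF-like and 95.8 and 98.7 CPM in ORS-like cells, to 31.9 and 25.0 CPM in companion layer-like cells. The lowest level was in IRS-like cells with 18.1 and 12.9 CPM, 5.38-fold and 7.05-fold below the other epithelial cells. No class was 2-fold above the others. Thus Jag2 was low in companion layer-like, IRS-like and Cx-like cells, where Notch1 and Notch3 were high. IFE-like cells, where Notch3 was also higher, had 81.3 and 32.5 CPM of Jag2, so that it was not low there in the WT library.

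Of the UMIs of both Jagged ligands, Jag1 took 88.3% (95% exact binomial interval 85.7 to 90.5) in WT Cx-like cells and 92.4% (89.4 to 94.7) in the other library. In IRS-like cells it took 75.8% and 80.4%, and in companion layer-like cells 63.0% and 61.3%. In uHF-like cells it took 23.7% and 21.2%, and in ORS-like cells 27.5% and 23.9%. The intervals of the former 3 classes did not overlap those of the latter 2.

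**Figure D3:**
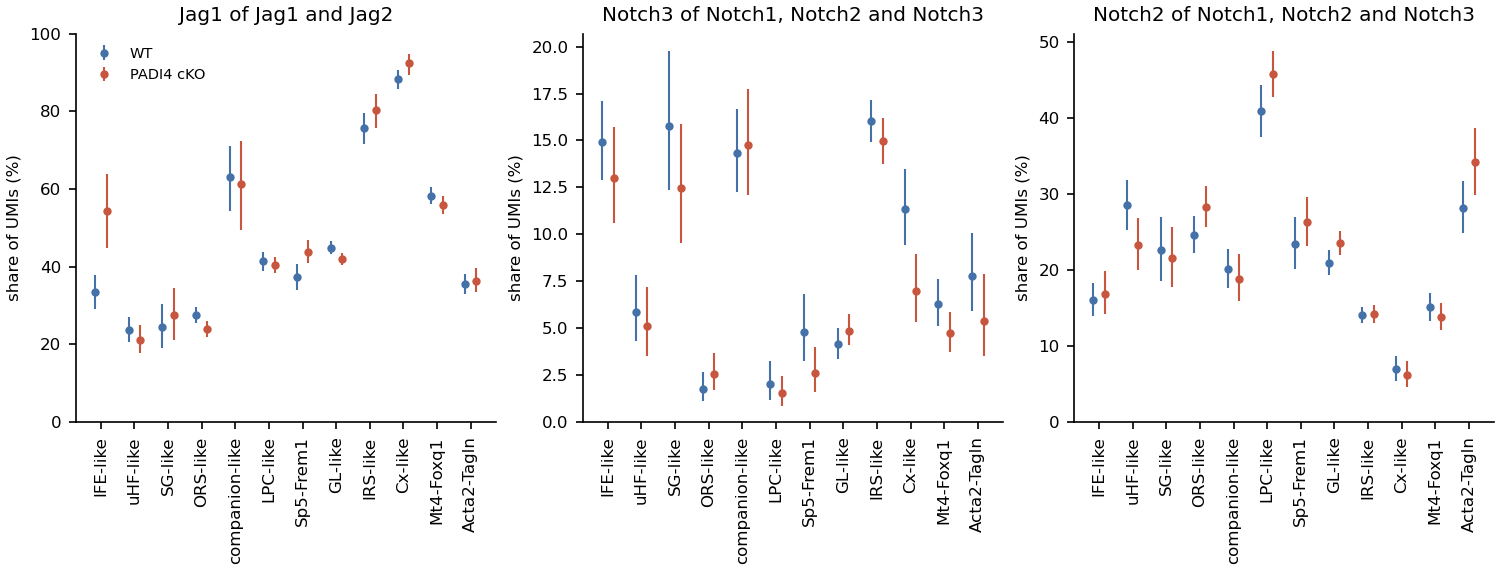
Share of Jag1 in the UMIs of Jag1 and Jag2 (left), and of Notch3 (middle) and Notch2 (right) in the UMIs of the 3 receptors, in percent by class, for the WT (blue) and PADI4 cKO (red) libraries with 95% exact binomial intervals. The share of Jag1 runs from below 30% in uHF-like, SG-like and ORS-like cells to above 85% in Cx-like cells.

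Dll1 (chromosome 17, 15367354 to 15376872, minus strand), a Delta ligand, was rare, with 891 and 637 UMIs in all. It was highest in Mt4-Foxq1 cells of the WT library and uHF-like cells of the other. Mt4-Foxq1 cells had 17.6 and 10.9 CPM, and uHF-like cells had 16.2 and 17 CPM. These 2 classes were 2.79-fold and 2.40-fold, and 2.45-fold and 3.75-fold, above the other epithelial cells. IRS-like cells had 13 UMIs in each library (1.98 and 2.51 CPM). Companion layer-like cells had 3 and 1 UMIs, a log2 ratio to the others of −1.69 (−4.19 to −0.36) and −1.94 (−7.83 to −0.04).

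Hes1 (chromosome 16, 30064384 to 30067796, plus strand), a target repressor, was detected in all classes at 54.2 to 166 CPM. Its lowest level was in Sp5-Frem1 cells (59.1 and 54.2 CPM). The highest was in companion layer-like cells of the WT library (123 CPM) and in IFE-like cells of the other (166 CPM). IFE-like cells of the latter library were 2.35-fold above its other epithelial cells, but no class was 2-fold above or below the others in both libraries, and 10 and 9 of the 11 steps in its order were within counting error.

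Hes2 (chromosome 4, 152158867 to 152162469, plus strand) had 255 and 203 UMIs in all, of which 53 and 41 came from the Cx-like cells. This gave 32.7 CPM (24.5 to 42.8) and 39.7 CPM (28.5 to 53.8), which was 20.6-fold and 31.7-fold above the other epithelial cells. The size of this difference depended on how the class was drawn: in the WT library it was 4.36 on the log2 scale, and 7.16 with Leiden clusters in place of the marker gate. Mt4-Foxq1 cells had 55 and 32 UMIs (7.21 and 4.19 CPM), and 125 and 96 UMIs came from cells without a class. LPC-like cells had 0 UMIs of Hes2 in both libraries, which allows up to 0.287 and 0.212 CPM (3 UMIs) and makes them at least 7.58-fold and 8.33-fold lower than the others. IFE-like and SG-like cells also had 0 UMIs in both libraries, but with fewer UMIs in all the limit was 0.76 and 1.88 CPM in the former and 1.46 and 1.46 CPM in the latter.

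Heyl (chromosome 4, 123233556 to 123249875, plus strand) was the target with the clearest pattern. Companion layer-like cells had 53.8 CPM (43.0 to 66.4) and 51.8 CPM (39.5 to 66.7), 11.5-fold and 9.23-fold above the others. IRS-like cells had 26.0 and 37.4 CPM, and Cx-like cells 18.5 and 32.9 CPM. IFE-like cells had 10.6 and 44.4 CPM. In LPC-like cells it had 6 and 7 UMIs (0.574 and 0.494 CPM), where free RNA could give up to 0.555 and 0.623 CPM. Levels of LPC-like cells were thus not distinguishable from background. ORS-like cells had 10 and 5 UMIs of Heyl (0.766 and 0.365 CPM), near the same average bound.

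Hey1 (chromosome 3, 8663359 to 8667256, minus strand) had 52 and 57 UMIs over all epithelial cells and at most 7 and 9 in a class. Its ratio in IRS-like cells rested on 7 and 5 UMIs and was 1.60 (0.12 to 2.68) and 1.33 (−0.48 to 2.52) on the log2 scale. That in Cx-like cells rested on 3 and 1 UMIs and was 2.46 (−0.07 to 3.88) and 1.72 (−4.18 to 3.68). At this depth no order of classes could be read for it.

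By class, members were counted where they were at least 2-fold above or below the other epithelial cells in both libraries, and the same count over 14950 genes with at least 100 UMIs serves as the background. In Cx-like cells 6 of 10 members were higher (Notch1, Notch3, Jag1, Hes2, Heyl and, on 3 and 1 UMIs, Hey1), against 3.35% of all genes. In IRS-like cells 5 were higher (the 3 receptors, Heyl and Hey1), against 3.57%, and 2 were lower (Jag2 and Dll1), against 14.2%. In companion layer-like cells 4 were higher (the 3 receptors and Heyl), against 4.11%, and 2 were lower (Jag2 and Dll1), against 3.08%. In IFE-like cells 2 were higher (Notch3 and Heyl), against 2.58%. The members' median log2 ratio was 1.86 and 1.92 in Cx-like and 0.98 and 0.81 in IRS-like cells, where that of all genes was −0.09 and −0.04, and −0.09 and −0.08. In companion layer-like cells it was 0.11 in the WT library and 1.21 in the other, with −0.04 and −0.05 over all genes. These 2 medians took in Hey1 on 0 and 1 UMIs, Hes2 on 1 and 2 and Dll1 on 3 and 1. Their difference is therefore not read.

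In Mt4-Foxq1 cells 2 members were higher (Dll1 and Hes2), against 2.09% of all genes. In uHF-like cells 1 was higher (Dll1), against 4.13%, and 2 were lower (Jag1 and Hes2), against 4.66%. Elsewhere no member was higher: this held for SG-like cells (5.38% of all genes), ORS-like (7.31%), LPC-like (0.843%), Sp5-Frem1 (2.27%), GL-like (0.602%) and Acta2-Tagln cells (6.56%). In ORS-like cells 5 were lower (Notch1, Notch3, Jag1, Hes2 and Heyl), against 6.41%. In LPC-like cells 4 were lower (Notch1, Notch3, Hes2 and Heyl), against 5.26%, and in Sp5-Frem1 cells 4 were lower (Notch3, Dll1, Hes2 and Heyl), against 5.37%. In GL-like cells 3 were lower (Notch3, Hes2 and Heyl), against 12.3%, in Acta2-Tagln cells 3 (Notch1, Notch3 and Hes2), against 5.61%, and in SG-like cells 2 (Jag1 and Heyl), against 8.94%. Notch3 and Heyl were thus higher in 4 classes and lower in 5 classes each. The lower counts of Hes2 in uHF-like, ORS-like, LPC-like, Sp5-Frem1 and Acta2-Tagln cells rested on 0 to 2 UMIs per library. That of Heyl in SG-like cells rested on 2 and 1 UMIs.

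Over the 12 classes of a library, Notch1 and Notch3 had a Pearson correlation of 0.94 in each library, on log2(CPM + 1). Notch1 and Heyl reached 0.91 and 0.85, and Jag1 and Hes2 0.91 and 0.87. Jag2 ran against the receptors, with −0.78 and −0.84 to Notch1 and −0.83 and −0.89 to Notch2. These 12 points come from the same library and are no replicates. Among 12097 genes with at least 500 UMIs, the pattern most like that of Notch1 over the 24 class values was that of Nectin4 (0.973), an adhesion molecule, followed by Smagp (0.965) and Mark2 (0.956). Notch3 was most like Rhov (0.973), Smagp (0.969) and Nectin4 (0.968), and Heyl most like Myh14 (0.978), Cited4 (0.964) and Rab25 (0.954). Notch2 was most like Gpr160 (0.916), L1cam (0.910) and Chmp4b (0.904). Jag1 was most like Rnf145 (0.927), Dsg4 (0.920), a desmoglein of the hair shaft, and Uaca (0.908), and Hes2 most like Dsg4 (0.938), Nlk (0.936) and Atg4b (0.934). Jag2 was most like Casp6 (0.958), Gmpr2 (0.936) and Pskh1 (0.935), and Hes1 most like Myh14 (0.868), Gipc1 (0.868) and Trim16 (0.863). Dll1 (Sfr1, 0.764, Vav3, 0.749, and Tshz1, 0.737) and Hey1 (Usp53, 0.797, Rps29, 0.777, and Tubb3, 0.760), with few UMIs, had no gene above 0.8.

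Within a class the members also varied with the marker score. Among IRS-like cells Notch2 had 50.4 CPM at a score of 0.5 to 1, 78.7 at 1 to 2 and 126 above 2 in the WT library, and 49.4, 74.5 and 125 CPM in the other. Jag2 went the other way, from 27.2 to 18.7 and 13.3 CPM and from 27.2 to 13.8 and 7.06 CPM. Notch1 was not graded in this way, with 458, 519.5 and 408 CPM, and 465, 512 and 416 CPM. The median UMIs per cell of these bins lay between 14489 and 18274.

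**Figure D4:**
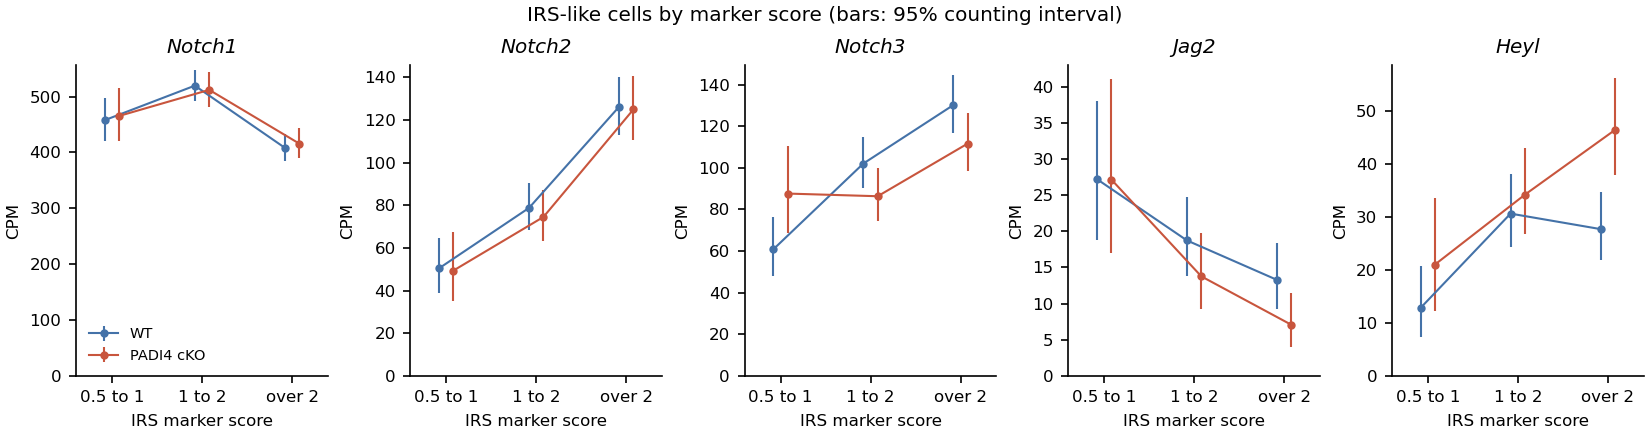
CPM of 5 genes (panels) in IRS-like cells grouped by their IRS marker score, for the WT (blue) and PADI4 cKO (red) libraries, with 95% Poisson intervals. Notch2 is higher and Jag2 lower at a score above 2 than at 0.5 to 1 in both libraries, while Notch1 is highest at 1 to 2.

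IFE-like cells had a similar grading of Notch3, with 14.6, 37.9 and 87.3 CPM from the lowest to the highest score in the WT library, and 32.6, 63.3 and 84.2 CPM in the other. Jag2 was at 88.8, 99.9 and 37.6 CPM, and at 54.4, 28.9 and 4.21 CPM. Heyl was at 8.24, 11.8 and 11.2 CPM for WT, but at 21.7, 48.8 and 71.6 CPM in the other library, the last from 20 cells. In Mt4-Foxq1 cells Jag1 was higher at higher scores in the WT library, with 122, 162 and 206 CPM, and was at 130, 111 and 169 CPM in the other.

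Of 39 further pathway genes, 30 had at least 100 UMIs. Nrarp, a target that encodes a feedback inhibitor, was high in the same classes as Notch2, with 142.5 and 134 CPM in companion layer-like and 110 and 114 CPM in IRS-like cells, and 14.3 and 15.3 CPM in ORS-like cells. Lfng was lower in the same 2 classes and in Cx-like cells: it had 2.74 and 4.63 CPM in IRS-like, 6.88 and 9.49 CPM in companion layer-like and 10.5 and 7.74 CPM in Cx-like cells, against 30.1 and 28.9 CPM over all. Hes6, a Hes family member, was highest in Mt4-Foxq1 cells with 60.9 and 59.4 CPM. Rbpj, the DNA-binding partner of all Notch receptors, ranged from 43.1 and 31.9 CPM in companion layer-like to 86.6 and 92.8 CPM in ORS-like cells. This was a range of 2.01-fold and 2.91-fold, with the lowest level in a class where all 3 receptors were high. No class was 2-fold above or below the others in Rbpj in both libraries.

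Counted by class, few of these 30 genes passed 2-fold. In IRS-like cells 2 (6.67%) were higher (Dtx2 and Nrarp), against 3.57% of all genes, and 5 (16.7%) were lower (Dlk2, Maml2, Lfng, Neurl1a and Dtx4), against 14.2%. In companion layer-like cells 1 (3.33%) was higher (Nrarp) and 1 (3.33%) lower (Lfng), against 4.11% and 3.08%. In Cx-like cells 1 (3.33%) was higher (Aph1b, a subunit of γ-secretase), against 3.35%, and 2 (6.67%) were lower (Lfng and Neurl1b), against 6.05%. Mt4-Foxq1 cells were higher in Hes6 and lower in Dtx4, 1 gene (3.33%) each, against 2.09% and 10.4%. In IFE-like cells 2 (6.67%) were higher (Neurl1b and Dtx2), against 2.58%, in uHF-like cells 3 (10%) (Dlk2, Neurl1b and Dtx4), against 4.13%, and in SG-like cells 2 (6.67%) (Dtx2 and Dtx4), against 5.38%. In ORS-like cells 2 (6.67%) were higher, against 7.31%: the coactivator Maml2 (401 and 548 CPM) and Dlk2, a Delta-like protein (21.3 and 20.8 CPM). The γ-secretase subunits Psenen, Ncstn and Aph1a, the proteases Adam10 and Adam17, and the ligand regulators Mib1 and Mib2 passed 2-fold in no class.

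Between the libraries the members differed little over all epithelial cells. The log2 ratio of PADI4 cKO to WT was −0.19 for Notch1 (142 and 125 CPM), −0.06 for Notch2 (36 and 34.6 CPM) and −0.36 for Notch3 (16.9 and 13.2 CPM). It was −0.18 for Jag1, −0.08 for Jag2 and −0.50 for Dll1 (6.98 and 4.93 CPM, interval −0.65 to −0.35). The targets had −0.15 (Hes1), −0.35 (Hes2), 0.11 (Hey1) and 0.19 (Heyl). These ratios also take in how many cells of each class a library held. IRS-like cells were 5.07% and 3.83% of the epithelial cells, Cx-like 1.21% and 0.79%, and IFE-like 3.79% and 1.54%. Within classes Notch1 was higher in 6 and lower in 6 of 12 in the PADI4 cKO library. Notch3 was higher in 2 and lower in 5 of 7. The part of the class makeup in the ratios was not tested. Of the 10 members 1 (Dll1) was past 0.5 in size, against 5.42% of 14950 genes, and the members' median was −0.17 against −0.01 for all genes. The ratio of Dll1 was −0.31 (−0.55 to −0.06) among cells with Xist alone, and within the WT library Xist cells had 0.29 less Dll1 on the log2 scale than cells with Y-linked UMIs. Among Xist cells the ratio was −0.39 (−0.53 to −0.25) for Notch3 and −0.68 (−1.06 to −0.29) for Hes2, which was 0.54 higher in WT Xist cells than in WT cells with Y-linked UMIs. With cells thinned to 2000 UMIs, Notch3 had −0.08 and Dll1 −0.32.

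Within classes, 74 pairs of a member and a class had at least 100 UMIs, and 9 of them were past 0.5 (5 higher and 4 lower in the library labelled PADI4 cKO), or 12.2%, against 6.43% of 102217 pairs over all genes. The balance of directions depended on how the cells were chosen: it was 1 higher and 6 lower of 73 pairs with Leiden clusters, 2 and 7 of 78 with a looser gate, and 2 and 4 of 39 among Xist cells. Of the 9, 5 were in IFE-like cells. There Heyl had 10.6 and 44.4 CPM (log2 ratio 2.06, 1.49 to 2.65), Notch1 203 and 310 CPM (0.61, 0.45 to 0.77), Notch2 47.1 and 74.5 CPM (0.66), Hes1 111 and 166 CPM (0.59) and Jag2 81.3 and 32.5 CPM (−1.31, −1.77 to −0.89). The remaining 4 were Heyl in IRS-like cells (26.0 and 37.4 CPM, 0.53), Jag2 in Cx-like cells (52.5 and 31.0 CPM, −0.75), and Dll1 in ORS-like (5.90 and 3.51 CPM, −0.74) and Mt4-Foxq1 cells (17.6 and 10.9 CPM, −0.69).

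**Figure D5:**
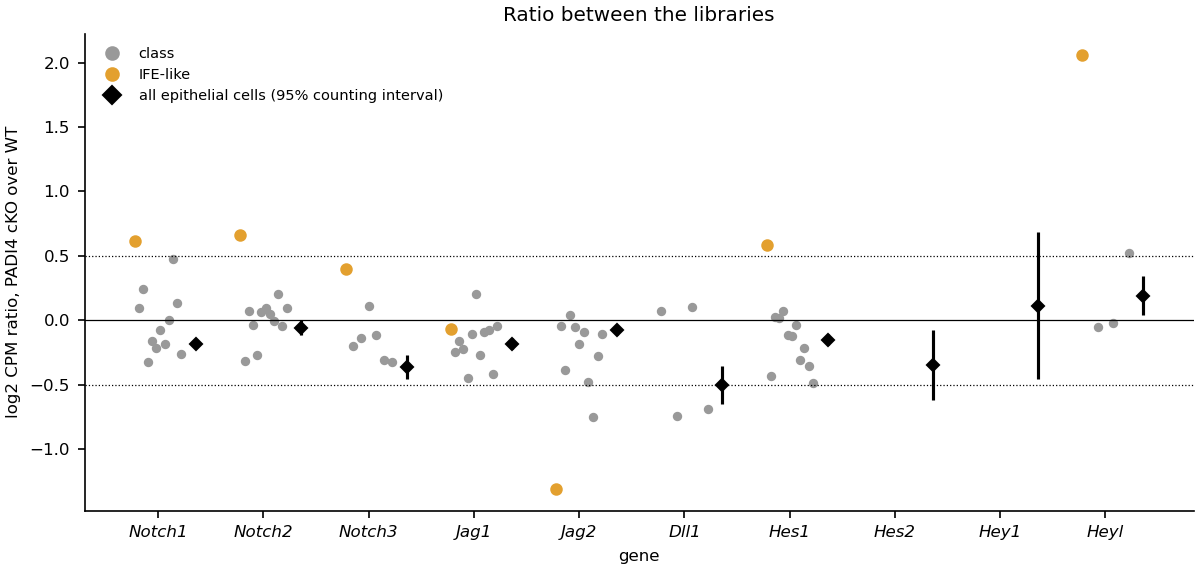
Log2 ratio of the CPM in the library labelled PADI4 cKO to that in the WT library for each gene: points are classes with at least 100 UMIs (IFE-like in orange), diamonds are all epithelial cells with 95% exact intervals, and dotted lines lie at 0.5 and −0.5. The orange points of Heyl (2.06) and Jag2 (−1.31) lie farthest from 0.

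The IFE-like cells were not alike in the 2 libraries. They numbered 304 and 113, and their keratin levels differed. Krt14 had 5664 and 1585 CPM, Krt5 3896 and 1647 CPM, Krt1 919 and 115 CPM, and Krt10 915 and 123 CPM. Calm4 had 528 and 646 CPM. These keratins were thus higher on the WT side, as Jag2 was, whereas Heyl, Notch1, Notch2 and Hes1 were lower there. Among cells with Xist alone, 40 and 108 in number, Krt1 had 124 and 106 CPM, Krt10 502 and 116 CPM, and Krt14 2733 and 1529 CPM. There the ratio was 0.08 (−0.65 to 0.92) for Heyl, 0.17 (−0.11 to 0.47) for Notch1 and 0.30 (−0.29 to 0.97) for Notch2, but 0.95 (0.48 to 1.49) for Hes1 and −1.34 (−1.98 to −0.69) for Jag2. With Leiden clusters in place of the marker gate, the ratios in IFE-like cells were 0.01 for Notch1, −0.27 for Notch2, −0.05 for Jag2, −0.28 for Hes1 and 1.61 for Heyl. The part of the makeup of this class in these differences was not tested. For the remaining 4 pairs the ratios among Xist cells had the same sign, with 0.69 (Heyl in IRS-like), −0.68 (Jag2 in Cx-like, −1.52 to 0.20), −1.27 (Dll1 in ORS-like) and −0.68 (Dll1 in Mt4-Foxq1 cells).

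Of the further pathway genes, 10 of 242 pairs (4.13%) were past 0.5, 2 above and 8 below, a smaller share than the 6.43% over all genes. Dlk2 was in 3 of them, with 29.1 and 10.6 CPM in IFE-like (−1.42), 7.08 and 4.23 CPM in LPC-like (−0.74) and 19.8 and 7.86 CPM in Mt4-Foxq1 cells (−1.33). Maml2 was lower in IFE-like (−0.58) and higher in Cx-like cells (0.65), and Nrarp was higher in IFE-like cells (0.57). Psen2 in GL-like (−0.67), Ncstn in IFE-like (−0.52), Neurl1b in LPC-like (−0.87) and Hes6 in Cx-like cells (−0.78) were lower.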

How the data were processed

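Raw UMI counts per gene and droplet barcode, with no normalization and with empty droplets included, were deposited by the authors, who made them with Cell Ranger 7.1.0 from 3′ libraries. The submitters' processing notes name mm10. Whether intronic reads were counted or strand was used is not given in the sources used here, which bears on Notch1, Notch3 and Dll1, whose positions overlap genes on the other strand. On the same strand Notch1 overlaps Mir6996, Notch2 overlaps Gm42819 and Gm42820, and Jag2 overlaps Mir6941. CellBender and Harmony, which the authors used, were not run.

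Kept droplets held 1000 to 8000 genes and 2000 to 60000 UMIs, of which mitochondrial genes made up at most 20% and hemoglobin at most 1%, with a ribosomal share between the 5th and 99th percentile. Per cell, each marker list was scored as the mean of its markers' standardised log values, and a cell joined the list of the highest score if this was at least 0.5, at least 0.25 above the next, and rested on 2 or more marker UMIs. These 3 values were set after the data had been seen. Doublets were scored with Scrublet (threshold 0.198 for both libraries, as the automatic value of the WT library called 0.012% of cells), which called 296 cells in each library. They were kept except in an alternative.

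UMIs were summed per library and class. CPM intervals are exact Poisson, shares exact binomial (Clopper-Pearson) and ratios exact conditional binomial intervals, with 0.5 UMIs added to each sum in a ratio. For a call of higher nothing was added to the sum of the class, so that a gene at 0 there could not be called. A sum of 0 was set to 3 UMIs before a gene was called lower. Genes needed at least 100 UMIs, and classes at least 50 cells in each library. The genes described are the 10 members, the genes of the pathway list that passed a threshold in a class, and the 3 genes most correlated with each member. The keratins of IFE-like cells, the pathway genes that were lower in a class, and those named as passing 2-fold in none were chosen after their values were seen. The members and the lists were chosen with earlier results of these data known. All 10 members were matched by identifier to GENCODE vM21. Free RNA was bounded by collagen genes and droplets with fewer than 100 UMIs, as 1 average over the epithelial cells of each library. Python 3.11.15, Scanpy 1.11.5, SciPy 1.17.1 and NumPy 2.4.6 were used.

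The ratio between libraries was tested on simulated data with 2-fold changes. Counts of both libraries were drawn from the WT profile with counting error alone. Differences between animals, sexes or the makeup of a class were not simulated, so the passing shares are no error rates for the real data. In the ORS-like setting (11164 genes) 100% of the raised and of the lowered genes and 0.629% of the unchanged genes passed 0.5, and in the Cx-like setting (4661 genes) 98%, 98.8% and 2.75%.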

Additional observations from a re-analysis of the deposited data

How the results depend on the processing

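The number of members at least 2-fold higher in some class was 8, and between 6 and 9 in 11 alternatives (stricter and looser gates, Leiden clusters, other UMI limits, doublets left out, thinned cells, free RNA subtracted, other scaling, folds of 1.5 and 3). The share of all genes higher in some class is not given, so this count has no background. The 8 include Hey1, on 7 and 5 UMIs in IRS-like and 3 and 1 UMIs in Cx-like cells. The number of member and class pairs past 0.5 between the libraries was 9 of 74. It was 4 of 30 with cells thinned to 2000 UMIs, 14 of 84 with a minimum of 50 UMIs and 2 of 41 with a minimum of 500 UMIs, which change how many pairs could be compared. In the other 10 alternatives it stayed within 1.5 times of 9. The share of all pairs past 0.5 is given for the main setting only. Of 110 ratios over all epithelial cells, 99 moved by less than counting error, and those of Notch2 (0.01 among Xist cells), Hes2 (0.32 in thinned cells) and Hey1 (−0.01 among Xist cells) changed sign. The 110 include the stricter gate, the looser gate and Leiden clusters. The classes do not enter these ratios, so these settings could not move them and tell nothing of their stability. Hes2 reached −0.68 among Xist cells, and Dll1, at −0.50, had −0.31 among them and −0.32 in thinned cells. Of 86 levels of a member in its highest class, 77 moved by less than counting error, the largest change being that of Hes2 in Cx-like cells (7.16 against 4.36 on the log2 scale with Leiden clusters). The highest class of the WT library changed for Notch3 in 3 alternatives (companion layer-like in place of IRS-like cells), for Jag2 in 2 (Mt4-Foxq1 or uHF-like), for Dll1 in 2 (IFE-like or uHF-like), for Notch2 in 1 (IRS-like) and for Hes1 in 1 (Cx-like). Under the stricter gate Cx-like cells fell below 50 in a library and gave no value. No paired analysis was possible because each genotype has 1 library and no replicate number. Depth limits Hey1, Hes2 outside 2 classes, and Dll1 in companion layer-like and IRS-like cells. It also limits Heyl in SG-like, ORS-like, LPC-like and Sp5-Frem1 cells.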
